A study of Mus musculus with 6 samples.

Results

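The 10 genes described here are *Nos2* and the genes of arginine metabolism around it, namely *Gch1*, *Slc7a1*, *Slc7a2*, *Ass1*, *Asl*, *Arg1*, *Arg2*, *Odc1* and *Oat*. They were taken by gene symbol, and all 10 were found among 24786 gene symbols. The sequenced RNA came from Raw264.7 cells, a mouse macrophage line from an Abelson leukemia virus-induced tumor. The labels list the strain as C57BL/6, which was not checked against the origin of the line. The cells were infected with lentivirus carrying a control shRNA (sh-NC, genotype labelled control, n = 3) or one that targets *Etv5* (sh-*Etv5*, labelled Etv5 knockdown, n = 3). No stimulus is named for either group. Which of the study's shRNAs was sequenced is not given in the sources used here, nor whether each library is an infection of its own, so p-values measure the spread between these libraries only, which may be technical.

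Arginine stands at a branch point in macrophages. Nitric oxide synthase turns it into nitric oxide and citrulline, and the citrulline can be built back into arginine, whereas arginase splits it into urea and ornithine, which feeds polyamine and proline synthesis. Cells take arginine up through cationic amino acid transporters, and NOS2 is active only with its cofactor tetrahydrobiopterin. High *Nos2* is the classic mark of macrophages activated by bacterial products and interferon, and high *Arg1* that of macrophages activated by interleukin-4.

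Values are RPKM, in which reads are divided by gene length and by the mapped reads of the library, and levels can therefore be compared between genes per length. In bulk RNA, fewer cells with a transcript and less transcript per cell cannot be told apart. The read depth of the libraries is unknown. The RPKM values of a library summed to 320462 to 322949 with sh-NC and 330454 to 340257 with sh-*Etv5*. Pearson's r of log2(RPKM + 1) across genes was at least 0.998 within groups and at most 0.975 between them, and genes are not independent replicates. The targeted gene *Etv5* had a mean RPKM of 9.49 ± 0.367 with sh-NC and of 5.13 ± 0.196 with sh-*Etv5* (SD, n = 3, limma adjusted p = 2.74e-07). Of 10 macrophage markers, 9 were tested, of which 4 rose and 4 fell. *Itgam*, *Aif1* and *Adgre1* rose (log2 fold changes 1.88, 1.85 and 1.77, *Aif1* meeting the filter only through sh-*Etv5* libraries). *Spi1* rose by 0.15, a call that was lost in 2 of 16 alternatives. *Csf1r*, *Cd68*, *Fcgr1* and *Lyz2* fell (-0.81, -0.57, -0.56 and -0.47, that of *Lyz2* not called without the filter). *Ptprc* was not called (limma adjusted p = 0.270), and *Mertk* was near 0 in both groups. The summed RPKM of the list ranged from 3873 to 3977 in sh-NC libraries and from 2871 to 2948 in sh-*Etv5* libraries. Most of this sum was *Lyz2*, at 2834 ± 40.3 and 2041 ± 54.2 RPKM (SD, n = 3). Of 15 markers of other cell types none reached the test, 3 (*Col1a2*, *Krt8* and *Ly6g*) were at 0 in all libraries, and their summed RPKM was between 0.336 and 0.615 in sh-NC libraries and between 1.42 and 1.71 in sh-*Etv5* libraries. *Pecam1*, *Cdh5*, *Myh11* and *Col1a1* were higher in every sh-*Etv5* library than in any sh-NC library, all below 1 RPKM. *Pecam1* had the highest of these levels, at 0.163 ± 0.0540 and 0.703 ± 0.0575 RPKM (SD, n = 3, limma adjusted p = 0.00102 without the filter). The part of the markers of both lists in the results below was not tested.

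Promoter sequence from RefSeq (GRCm38.p6) was found for 5 of the 10 genes, namely *Gch1*, *Slc7a1*, *Oat*, *Odc1* and *Ass1*. The 150 bases before a start site are shown for *Gch1* and *Slc7a1*, which rose, and for *Oat*, which fell. *Gch1* lies on the minus strand of chromosome 14 (GRCm38, 47153895 to 47189413), *Slc7a1* on the minus strand of chromosome 5 (148327410 to 148399904) and *Oat* on the minus strand of chromosome 7 (132557478 to 132576398). Each line reads 5′ to 3′ on the strand of the gene, from chr14:47189414-47189563, chr5:148399905-148400054 and chr7:132576399-132576548. Capitals mark matches to searched motifs.
Gch1: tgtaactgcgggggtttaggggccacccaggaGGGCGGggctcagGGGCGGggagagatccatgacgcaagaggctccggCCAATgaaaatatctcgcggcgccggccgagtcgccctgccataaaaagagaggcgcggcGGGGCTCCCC
Slc7a1: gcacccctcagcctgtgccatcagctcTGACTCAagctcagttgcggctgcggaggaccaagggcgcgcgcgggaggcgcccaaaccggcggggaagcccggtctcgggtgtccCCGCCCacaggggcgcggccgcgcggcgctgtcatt
Oat: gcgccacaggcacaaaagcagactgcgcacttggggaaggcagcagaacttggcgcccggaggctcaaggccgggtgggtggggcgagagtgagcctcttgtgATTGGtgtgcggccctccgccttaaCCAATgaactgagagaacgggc

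In these windows *Gch1* held a match to the NF-κB consensus, 2 matches to the GC box motif GGGCGG and 1 to the box known as CCAAT. *Slc7a1* held a match to the AP-1 motif TGANTCA and 1 to the GC box. *Oat* held 2 matches to the CCAAT box. The printed matches did not overlap each other. Among 32851 RefSeq windows of 250 bases before a start site, 32.7% held a GC box, 33.8% a CCAAT box, 3.9% the NF-κB consensus and 6.7% the AP-1 site. No match to the ETS core CCGGAA, the CRE TGACGTCA, the ATF4 composite site TGATGNAA or the E-box CACGTG was found in the 250 bases before these 3 start sites, and these motifs were held by 12.0%, 1.5%, 3.5% and 6.0% of all windows. RefSeq gives *Slc7a1* another start site, not shown, whose 250 bases (chr5:148392816-148393065) held only a TATA box match (TATAAA). That motif was searched on the sense strand and was held by 7.6% of all windows. For the other motifs both strands were searched. In the 250 bases before their start sites, not shown, *Odc1* held only GC box matches, and *Ass1* held a GC box and an E-box match. A match is a description of letters and not a measured binding site.

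Of the 10 genes, 6 passed the filter on low values (RPKM of 1 or more, 3 or more libraries) and entered the limma test across 10738 genes on log2(RPKM + 1). *Nos2*, *Gch1*, *Odc1*, *Asl* and *Slc7a1* rose in sh-*Etv5* cells, and *Oat* fell, each at an adjusted p-value (Benjamini-Hochberg) under 0.05 and with no overlap between the libraries of the groups. Of all genes tested, 74.3% were called in either direction (33.3% higher and 41.0% lower) and 76.4% had groups that did not overlap, so that being called is common in this comparison. As a description of size, the median log2 difference over all 10 genes was 0.35, against 0 over all 24786 genes. Of the latter, 6955 were listed at 0 in all libraries, which draws that median toward 0. Of all genes tested, 9.23% changed by more than 1 on the log2 scale in either direction, among them *Nos2*, *Gch1*, *Odc1* and *Asl*. The remaining 4 genes, *Ass1*, *Arg1*, *Arg2* and *Slc7a2*, were below the filter and are given by their values.

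**Figure D1:**
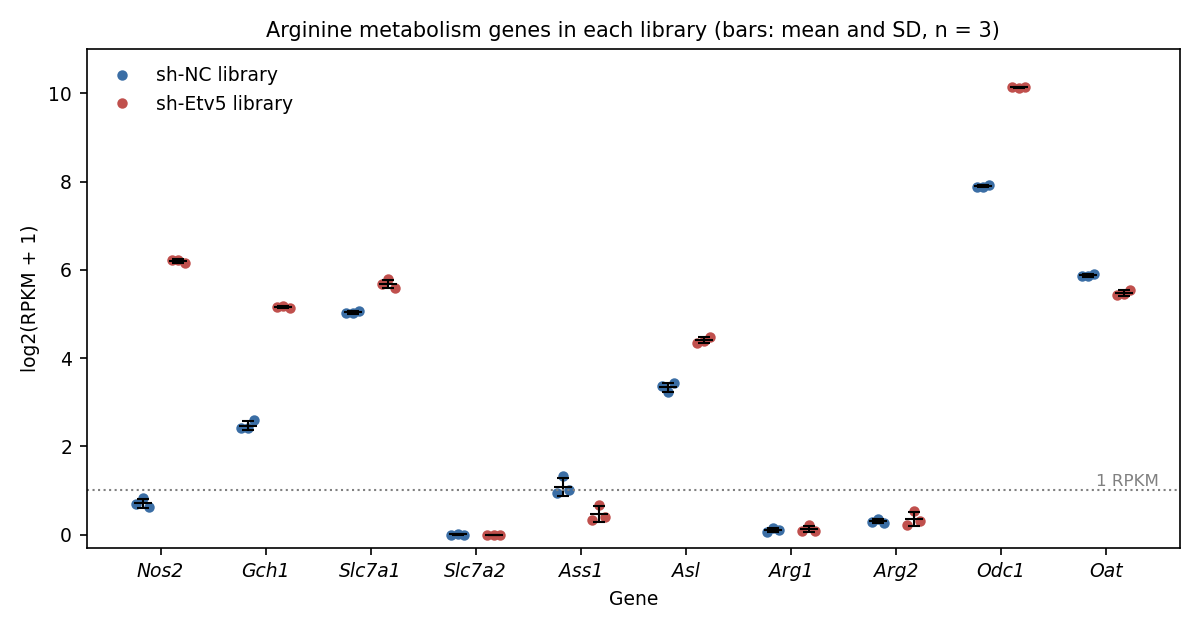
Level of each of the 10 genes in every library, as log2(RPKM + 1) on the vertical axis; points are libraries, bars the mean and SD of 3 libraries, and the dotted line is 1 RPKM. *Nos2*, *Gch1*, *Slc7a1*, *Asl* and *Odc1* are higher in all 3 sh-*Etv5* libraries than in any sh-NC library, *Oat* and *Ass1* are lower, and *Slc7a2*, *Arg1* and *Arg2* stay under 1 RPKM in both groups.

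*Nos2* (GRCm38 chromosome 11, 78920787 to 78960254, plus strand) encodes the inducible nitric oxide synthase. It had RPKM values of 0.617, 0.771 and 0.536 with sh-NC and of 74.0, 74.0 and 70.3 with sh-*Etv5*. All sh-NC values were thus below 1 RPKM, and the sh-*Etv5* libraries stood within a narrow range far above them. The ratio of the group means was 113, and the ratio between single libraries ran from 91.2 to 138. On the log2(RPKM + 1) scale, which is used for all log2 fold changes here and understates the change of genes at low RPKM, the log2 fold change was 5.49 (95% interval 5.36 to 5.63, limma adjusted p = 7.43e-14). *Nos2* met the filter through the 3 sh-*Etv5* libraries alone, and in the fit without a filter its limma adjusted p was 7.71e-06. By the size of this change *Nos2* ranked 10 of the 10738 genes tested, and by mean RPKM it moved from rank 10900 of 24786 in sh-NC cells to rank 783 in sh-*Etv5* cells. None of the 50-base sequences of its transcripts occurs in another annotated gene.

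The other nitric oxide synthases were at low RPKM in both groups. The neuronal form *Nos1* had means of 0.108 ± 0.0132 with sh-NC and 0.136 ± 0.0690 with sh-*Etv5*, and the endothelial form *Nos3* of 0.0902 ± 0.0236 and 0.150 ± 0.0485 (RPKM, SD, n = 3). Both were below the filter, and their groups overlapped. In the list of 13 nitric oxide synthases and regulators that holds them, 7 genes were tested, of which 1 rose, 4 fell and 2 were not called. The gene that rose was *Nostrin*, known for the trafficking of endothelial nitric oxide synthase (log2 fold change 0.78, limma adjusted p = 4.05e-07). The calmodulin genes *Calm3* (-0.55) and *Calm2* (-0.49), whose product is bound by nitric oxide synthases, fell.

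*Gch1* encodes GTP cyclohydrolase, the first and rate-limiting enzyme of tetrahydrobiopterin synthesis. It had RPKM values of 4.30, 4.33 and 5.02 with sh-NC and of 34.9, 35.5 and 34.3 with sh-*Etv5*. Its lowest sh-*Etv5* library was 6.83 times its highest sh-NC library. The mean rose from 4.55 ± 0.405 to 34.9 ± 0.597 RPKM (SD, n = 3). On the log2 scale this was 2.69 (95% interval 2.57 to 2.82, limma adjusted p = 1.39e-11) and ranked 92 by size among all genes tested. Its GC boxes and NF-κB match are in the sequence shown above.

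The rest of tetrahydrobiopterin synthesis and recycling moved little and in both directions. Of 7 further genes of this branch, 6 were tested, of which 2 rose, 3 fell and 1 was not called, with log2 fold changes between -0.53 and 0.22. The fall of *Spr* was lost in 5 of 16 alternatives and the rise of *Qdpr* in 4. *Pts*, the enzyme that acts after GTP cyclohydrolase, had RPKM values of 16.9, 17.6 and 16.4 with sh-NC and of 10.0, 11.1 and 13.4 with sh-*Etv5* (log2 fold change -0.53, limma adjusted p = 0.000138). *Pcbd2*, of the pterin recycling pathway, rose by 0.22 on the log2 scale, a call that was lost without the filter (limma adjusted p = 0.0918). *Gchfr*, the feedback regulator of GTP cyclohydrolase, was at 4.46 ± 0.492 and 5.11 ± 0.660 RPKM (SD, n = 3) and was not called (limma adjusted p = 0.132).

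*Slc7a1* and *Slc7a2* encode the cationic amino acid transporters CAT-1 and CAT-2, which carry arginine into the cell. *Slc7a1* had RPKM values of 31.6, 31.4 and 32.6 with sh-NC and of 50.2, 54.1 and 47.4 with sh-*Etv5*. The groups did not overlap, and the mean rose by 58.9%, from 31.8 ± 0.639 to 50.6 ± 3.36 RPKM (SD, n = 3). On the log2 scale this was 0.65 (95% interval 0.54 to 0.76, limma adjusted p = 3.21e-07). *Slc7a2* (chromosome 8, 40862396 to 40922308, plus strand), known as the transporter that often accompanies *Nos2* in activated macrophages, was listed at 0 in 5 libraries, and its single value above 0 was 0.0121 RPKM (sh-NC replicate 2). No difference was detectable for it at these values (95% interval of the log2 difference -0.02 to 0.01, without the filter), and *Slc7a1* was the member of the pair with measured transcript.

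Among other carriers of cationic amino acids, *Slc7a7* and *Slc3a2* had larger log2 fold changes than *Slc7a1*. Of 10 such genes, 6 were tested, of which 4 rose and 2 fell. *Slc7a7*, the light chain of the y+LAT1 exchanger that moves arginine in exchange for neutral amino acids, had RPKM values of 0.911, 1.39 and 0.993 with sh-NC and of 8.58, 8.74 and 8.94 with sh-*Etv5* (log2 fold change 2.22, limma adjusted p = 1.71e-09). Its heavy chain partner *Slc3a2* rose from 53.6 ± 1.19 to 153 ± 3.75 RPKM (SD, n = 3), which is 1.5 on the log2 scale. *Slc25a15*, the mitochondrial ornithine carrier, fell by 0.50 on the log2 scale. As a level, *Slc7a7* remained below *Slc7a1* in every library, at a ratio of 0.0346 ± 0.00856 in sh-NC cells and 0.174 ± 0.0137 in sh-*Etv5* cells (SD, n = 3).

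*Ass1* and *Asl* encode argininosuccinate synthase and lyase, which act in sequence to make arginine from citrulline. Their values went in opposite directions. *Asl* (chromosome 5, 130011258 to 130029247, minus strand) had RPKM values of 9.24, 8.42 and 9.79 with sh-NC and of 19.4, 20.0 and 21.4 with sh-*Etv5*. The mean rose from 9.15 ± 0.687 to 20.3 ± 0.988 RPKM (SD, n = 3), or by 1.07 on the log2 scale (95% interval 0.94 to 1.20, limma adjusted p = 3.11e-08).

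*Ass1* (chromosome 2, 31470207 to 31520672, plus strand) had RPKM values of 0.913, 1.5 and 1.01 with sh-NC and of 0.258, 0.580 and 0.328 with sh-*Etv5*. Every sh-*Etv5* library was below every sh-NC library, but only 2 libraries reached 1 RPKM, so the gene was not among those tested. The exact two-sided permutation test of its difference gave p = 0.1, the smallest value that 3 against 3 libraries allow. Without the filter its log2 difference was -0.62 (95% interval -1.0 to -0.24, limma adjusted p = 0.0333), in a fit that called 30.9% of all 24786 genes. With a filter of 0.1 RPKM in at least 3 libraries, chosen after seeing the data, the limma adjusted p was 0.00117. Of the 50-base sequences of *Ass1* transcripts, 38.6% also occur in other annotated genes, mainly in *Gm5424*. The RPKM of *Gm5424* was 1.05 ± 0.00628 times that of *Ass1* in the sh-NC libraries and 1.05 ± 0.00216 times in the sh-*Etv5* libraries (SD, n = 3). How reads shared by these loci were counted is not given in the sources used here, so the values of *Ass1* are uncertain.

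*Arg1* and *Arg2* encode the cytosolic and the mitochondrial arginase. *Arg1* (chromosome 10, 24915221 to 24927484, minus strand) had RPKM values of 0.0342, 0.112 and 0.0712 with sh-NC and of 0.0554, 0.158 and 0.0606 with sh-*Etv5*. *Arg2* (chromosome 12, 79130777 to 79156301, plus strand) had RPKM values of 0.224, 0.281 and 0.209 with sh-NC and of 0.166, 0.449 and 0.243 with sh-*Etv5*. The groups overlapped for both genes, and the exact two-sided permutation p was 0.7 for *Arg1* and 0.8 for *Arg2*. Without the filter, the 95% interval of the log2 difference was -0.11 to 0.15 for *Arg1* and -0.19 to 0.29 for *Arg2*. At such low RPKM this scale understates changes. The ratio between single libraries, sh-*Etv5* over sh-NC, ran from 0.495 to 4.62 for *Arg1* and from 0.593 to 2.15 for *Arg2*. Exons of *Arg2* overlap those of *Vti1b* on the opposite strand, which was at 41.1 ± 0.283 and 58.2 ± 1.30 RPKM (SD, n = 3), and the library kit named in the methods does not mark strand, so reads of *Vti1b* cannot be told apart from those of *Arg2* where they overlap.

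The ratios of *Nos2* to the other members give these levels within each library. *Nos2* was 2.69 ± 0.110 times *Arg2* in sh-NC libraries and 299 ± 140 times *Arg2* in sh-*Etv5* libraries (SD, n = 3). The lowest of the latter was 165, in the library with the highest *Arg2* value. *Slc7a1* was above *Nos2* in every sh-NC library, by 50.9 ± 10.0 times, and below it in every sh-*Etv5* library, at 0.695 ± 0.0319 times (SD, n = 3).

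*Odc1* and *Oat* encode ornithine decarboxylase and ornithine aminotransferase, which send ornithine to polyamines and to the proline and glutamate branch. *Odc1* (chromosome 12, 17544794 to 17551505, plus strand) had RPKM values of 235, 235 and 241 with sh-NC and of 1124, 1115 and 1134 with sh-*Etv5*. The mean rose from 237 ± 3.35 to 1124 ± 9.42 RPKM (SD, n = 3), which is 4.74 times. On the log2 scale this was 2.24 (95% interval 2.18 to 2.31, limma adjusted p = 2.61e-13). *Odc1* had the highest level of the 10 genes in both groups, and by mean RPKM it moved from rank 178 to rank 15 among all 24786 genes. Of its 50-base sequences, 24.3% also occur in other annotated genes, mainly in *Gm7993*, so reads from those stretches cannot be told apart by sequence.

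*Oat* had RPKM values of 56.8, 57.4 and 59.1 with sh-NC and of 42.2, 42.8 and 45.5 with sh-*Etv5*. The groups did not overlap, and the sh-*Etv5* mean (43.5 ± 1.79 RPKM) differed from the sh-NC mean (57.8 ± 1.22 RPKM, SD, n = 3) by -24.7%. *Oat* had a log2 fold change of -0.40 (95% interval -0.49 to -0.31, limma adjusted p = 3.58e-06), at rank 2197 among the falls of all genes tested. The ratio of *Odc1* to *Oat* was 4.13, 4.11 and 4.07 in the sh-NC libraries and 26.6, 26.1 and 24.9 in the sh-*Etv5* libraries. It was thus nearly constant within each group and did not overlap between them.

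**Figure D2:**
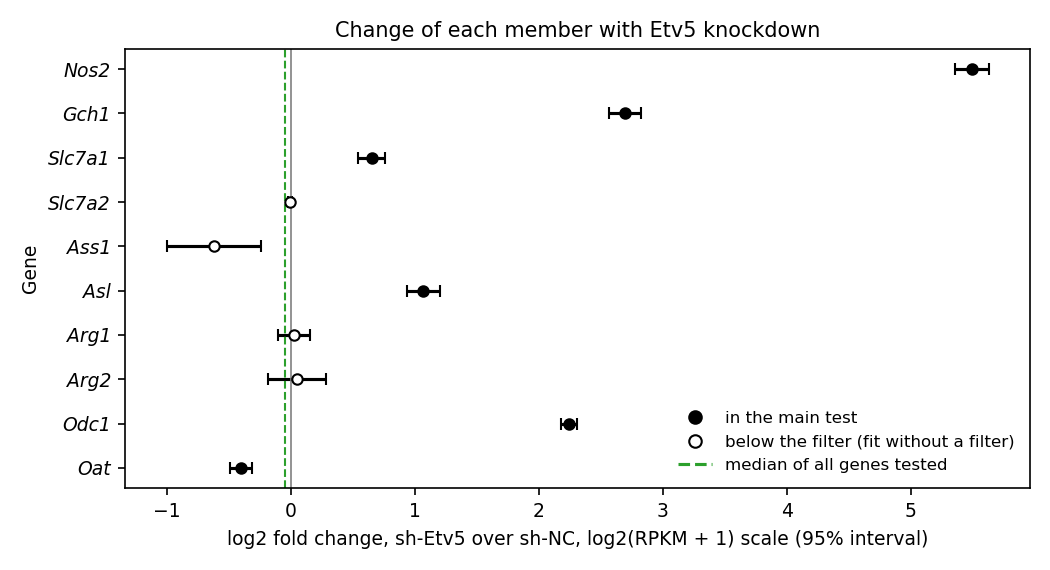
Log2 fold change of each of the 10 genes in sh-*Etv5* over sh-NC cells on the log2(RPKM + 1) scale, with 95% intervals; filled circles are genes in the test, open circles genes below the filter, and the dashed line is the median of all genes tested (-0.05). *Nos2* lies at 5.49, *Gch1* at 2.69 and *Odc1* at 2.24, while the intervals of *Arg1*, *Arg2* and *Slc7a2* include 0.

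Beyond *Odc1*, the polyamine genes did not move in a single direction. Of 16 genes of polyamine synthesis, turnover and control, 15 were tested, of which 7 rose, 5 fell and 3 were not called. The fall of *Atp13a3* was lost in 10 of 16 alternatives, the rise of *Paox* in 2 and that of *Sat2* in 1. *Sat1*, the acetyltransferase that starts polyamine breakdown and export, rose from 63.2 ± 1.65 to 164 ± 10.9 RPKM (SD, n = 3), or by 1.36 on the log2 scale (limma adjusted p = 6.14e-10). *Amd1*, which makes the aminopropyl donor for spermidine and spermine, had RPKM values of 34.6, 37.8 and 36.5 with sh-NC and of 18.3, 18.9 and 19.6 with sh-*Etv5* (log2 fold change -0.90, limma adjusted p = 1.39e-08). *Oaz2*, an antizyme that inhibits ornithine decarboxylase and sends it to the proteasome, rose by 0.77 on the log2 scale, whereas *Oaz1*, the more abundant antizyme, fell by 0.35. The ratio of *Odc1* to *Amd1* went from 6.54 ± 0.282 to 59.4 ± 1.77 (SD, n = 3).

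The list of the proline and glutamate branch holds the enzymes beside *Oat* and also some of other amino acids, such as *Asns*. All 12 genes were tested, of which 6 rose, 3 fell and 3 were not called. *Asns*, asparagine synthetase, rose from 52.2 ± 0.198 to 121 ± 2.71 RPKM (SD, n = 3), or by 1.20 on the log2 scale (limma adjusted p = 1.15e-10). *Pycr1*, which makes proline in mitochondria, had RPKM values of 1.16, 1.58 and 1.46 with sh-NC and of 3.04, 3.19 and 3.27 with sh-*Etv5* (log2 fold change 0.80). *Glul*, glutamine synthetase, fell by 0.78 on the log2 scale. Among 7 genes listed for the urea cycle and for creatine and agmatine synthesis, only *Gatm* and *Gamt* were tested. *Gamt*, of creatine synthesis, fell by 0.52 on the log2 scale and *Gatm*, which uses arginine, was at 43.4 ± 1.28 and 44.1 ± 0.729 RPKM (SD, n = 3, limma adjusted p = 0.559). *Otc* was listed at 0 in all libraries and *Cps1* was at most 0.00942 RPKM. *Azin2*, an antizyme inhibitor in the same list, was below the filter. It was at 0.188 ± 0.107 and 0.966 ± 0.0712 RPKM (SD, n = 3), with no overlap (limma adjusted p = 0.00211 without the filter).

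Over these 6 lists together, 65 genes other than the 10 were examined and 48 were tested, of which 20 rose, 18 fell and 10 were not called. Of those called, 9 lost the call in at least 1 alternative. Their median log2 fold change was 0.06, close to that of all genes tested (-0.05). The log2 fold changes of *Nos2* and *Gch1* were above those of all 48, the highest of which was *Slc7a7* at 2.22 (95% interval 2.03 to 2.41). That of *Odc1*, at 2.24, lay within the interval of *Slc7a7*. This order depends on the log2(RPKM + 1) scale, which understates the change of *Slc7a7* at its low sh-NC level. By ratio of group means *Slc7a7* rose 7.97 times, *Gch1* 7.66 times and *Odc1* 4.74 times.

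**Figure D3:**
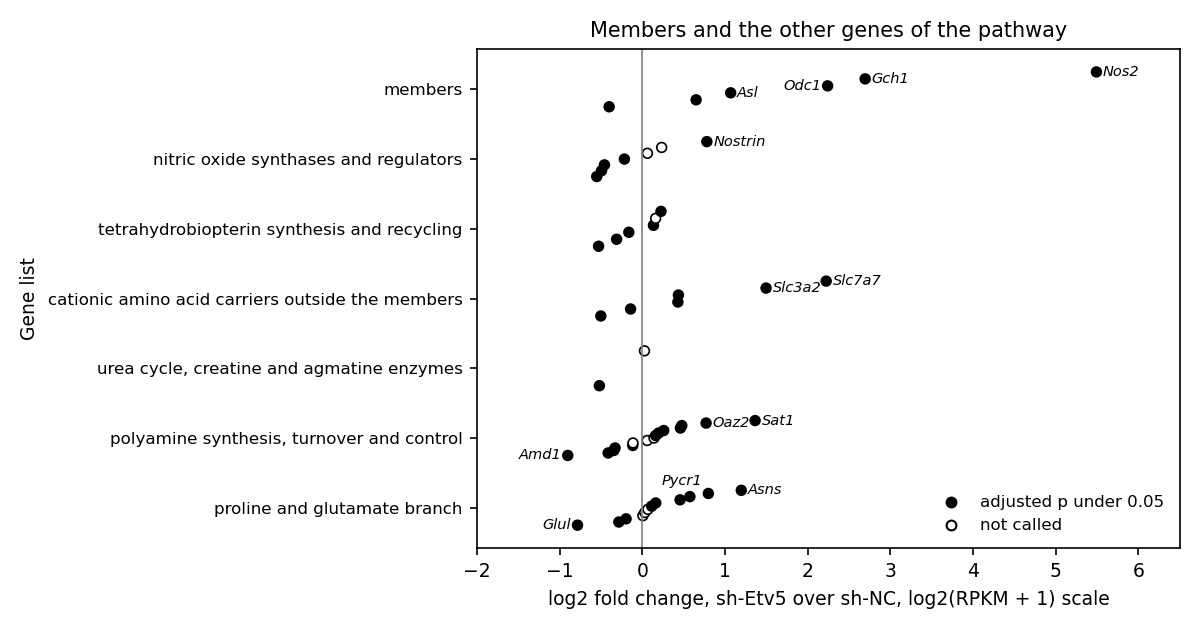
Log2 fold changes in sh-*Etv5* over sh-NC cells on the log2(RPKM + 1) scale for the 6 tested members and for 48 tested genes of 6 lists; each point is a gene, filled where the limma adjusted p-value was under 0.05, and genes beyond 0.75 in size are named. *Nos2* lies apart at 5.49, and the points of the other lists lie on both sides of 0.

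Of 14 transcription factors known to act on *Nos2* or *Arg1*, 12 were tested, of which 8 rose, 3 fell and 1 was not called. *Myc*, which is known to activate *Odc1* transcription, had RPKM values of 0.34, 0.381 and 0.303 with sh-NC and of 11.7, 12.0 and 12.1 with sh-*Etv5* (log2 fold change 3.27, limma adjusted p = 7.42e-12). *Myc* also met the filter only through its 3 sh-*Etv5* libraries, and with no filter the limma adjusted p was 7.44e-06. *Atf4*, a regulator of amino acid supply, rose by 0.91 on the log2 scale and *Stat3* by 0.87. *Rela*, an NF-κB subunit, rose by 0.17, and *Nfkb1*, another, by 0.13, a call that was lost with libraries rescaled to the same sum (limma adjusted p = 0.158). *Irf1*, which is needed for full *Nos2* induction, was at 4.90 ± 0.178 and 4.24 ± 0.563 RPKM (SD, n = 3) and was not called (limma adjusted p = 0.0677).

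The genes whose pattern over the 6 libraries was nearest to that of *Nos2* were *Il6*, *Ptgs2*, *Gm5416*, *Lix1* and *Acod1*. Nearness was the Euclidean distance after each gene's sh-NC mean of log2(RPKM + 1) was subtracted, and it was 0.475, 0.677, 0.890, 0.950 and 1.09 log2 units, in that order. Since the libraries form 2 groups, this measure mainly reflects the size of the difference between them. Their levels differed, with *Ptgs2* at 8.51 ± 0.394 and 327 ± 10.8 RPKM and *Acod1* at 9.62 ± 0.162 and 311 ± 6.18 RPKM (SD, n = 3), whereas *Il6* and *Gm5416* were listed at 0 in all sh-NC libraries.

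By mean level, the order in sh-NC cells was *Odc1*, *Oat*, *Slc7a1*, *Asl*, *Gch1*, *Ass1*, *Nos2*, *Arg2*, *Arg1* and *Slc7a2*, and no neighbors in this order overlapped in their library values. In sh-*Etv5* cells the order was *Odc1*, *Nos2*, *Slc7a1*, *Oat*, *Gch1*, *Asl*, *Ass1*, *Arg2*, *Arg1* and *Slc7a2*. There *Ass1* and *Arg2* overlapped, and the other neighbors did not. *Nos2* moved from place 7 to place 2, and *Oat* from place 2 to place 4.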

How the data were processed

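Poly(A) RNA of 3 sh-NC and 3 sh-*Etv5* libraries was sequenced with a TruSeq RNA kit. The authors deposited RPKM values per gene symbol and library on a linear scale, in columns named as coverage tracks. The submitters' processing notes name the mm10 build. The aligner and annotation are not given in the sources used here, and the depth per library is unknown. Scaling to mapped reads means that a few strongly expressed genes, such as *Spp1* in sh-*Etv5* cells, can shift all other values. All 6 columns were matched to samples by description.

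Genes whose RPKM was 1 or more in 3 or more libraries entered a two-sided limma test (limma 3.58.1, R 4.3.3) of log2(RPKM + 1), with trended eBayes and without covariates, and Benjamini-Hochberg adjustment was made over all genes tested. The step was tested on simulated data. Members below the filter were compared by an exact permutation test. Coordinates and 50-base sequences came from GENCODE M21 (GRCm38, which is mm10), and promoters from RefSeq. In the lists 114 genes were sought and 114 found, older symbols included.

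The members and lists were chosen with earlier results of these data known. Named are all members and, per list, up to 3 called genes with the largest change and no overlap, apart from items not reported here. *Nos1*, *Nos3*, *Gchfr*, *Spr*, *Qdpr*, *Gatm*, *Otc*, *Cps1*, *Azin2*, *Oaz1*, *Nfkb1*, *Rela*, *Irf1*, *Csf1r*, *Cd68*, *Fcgr1*, *Lyz2*, *Mertk*, *Spi1*, *Ptprc*, *Pecam1*, *Cdh5*, *Myh11*, *Col1a1*, *Atp13a3*, *Paox*, *Sat2*, *Ccl22*, *Gm5424*, *Vti1b* and *Gm7993* were named, and the ratios between genes chosen, after their values were seen. Alternatives covered pseudocounts, filters, scaling, the variance model, the replicate block and leaving out each library. Fits without a library kept the genes of the main test, while other filters and rescaling to the same sum changed which genes were tested. Python 3.11.15 and pandas 2.3.3 were used for annotation and promoter steps.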

Additional observations from a re-analysis of the deposited data

How the results depend on the processing

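*Nos2*, *Gch1*, *Slc7a1*, *Asl*, *Odc1* and *Oat* kept their direction and a limma adjusted p-value under 0.05 in each of 16 alternatives, including each library left out in turn. The log2 fold change of *Nos2* ran from 5.44 with quantile normalization to 6.82 with a pseudocount of 0.01, and that of *Oat* from -0.46 with libraries rescaled to the same sum to -0.35 with quantile normalization. Without the filter, or with a filter of 0.1 RPKM chosen after seeing the data, *Ass1* was called as well, so that 2 members were lower in both fits and 1 member below the filter was called in each. Requiring a log2 fold change above 1 in size left 669 higher and 322 lower genes, 0 lower members, and 4 higher and 0 lower genes among the other pathway genes. The replicate block gave 3539 higher and 4361 lower genes, the members called were 5 higher and 1 lower as without it, and same-numbered libraries did not deviate together (correlations 0.0739, -0.071 and -0.0352). Only replicate 1 correlated best with its own number. Depth is unknown, which limits what can be said of *Arg1*, *Arg2*, *Slc7a2* and *Ass1*.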

Other observations

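Of 10 markers of alternative macrophage activation other than *Arg1*, only *Il4ra* and *Clec10a* were tested. *Il4ra*, the receptor chain for interleukin-4, had RPKM values of 0.707, 0.852 and 0.761 with sh-NC and of 2.28, 2.41 and 2.11 with sh-*Etv5* (log2 fold change 0.88, limma adjusted p = 1.62e-06). It met the filter only through the 3 sh-*Etv5* libraries, and with no filter the limma adjusted p was 0.000483. *Clec10a*, a galactose-binding lectin, was at 1.24 ± 0.173 and 0.783 ± 0.205 RPKM (SD, n = 3) and fell by 0.33 on the log2 scale (limma adjusted p = 0.0137). This call was lost without sh-NC replicate 1 (limma adjusted p = 0.0592), without sh-*Etv5* replicate 1 (0.0543) and without the filter (0.0903). Below the filter, *Ccl22*, a chemokine, had RPKM values of 0.717, 0.506 and 0.562 with sh-NC and of 0.0581, 0.176 and 0.0594 with sh-*Etv5*, with no overlap (limma adjusted p = 0.00488 without the filter). The summed RPKM of the 10 genes was between 2.80 and 3.18 in sh-NC libraries and between 2.93 and 3.91 in sh-*Etv5* libraries.

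Among the members at low RPKM, replicate 2 held the highest value of its group for *Ass1*, *Arg1* and *Arg2* in both sh-NC and sh-*Etv5* cells. The cause was not tested.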
